A study of Mus musculus with 9 samples.

Results

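The genes of the cytosolic ribosomal proteins were followed across 3 regions of the mouse forebrain. Members were chosen by name alone, as all probe sets whose single gene symbol starts with Rpl or Rps and a digit, or with Rplp, without the Rps6k kinase genes and without symbols marked as pseudogenes. This gave 104 of the 45037 probe sets of the array and 49 of the 18193 genes with a probe set of 1 symbol, of which 93 probe sets and 45 genes passed a filter on low values. The filter asked for an intensity above the 40th percentile of the array on at least 3 of the 9 arrays, and 14208 genes in all passed it. Of the regions, the bed nucleus of the stria terminalis, or BNST, belongs to the extended amygdala and serves stress and anxiety behaviour. The nucleus accumbens (NAc) is the ventral striatum, which serves reward, and the dorsal striatum, dStr, serves action selection and habit. The titles count 3 biological replicates per region, with 1 Affymetrix Mouse430_2 array for every sample. Tissue was punched from semi-frozen coronal slices of 300 µm cut after isoflurane anaesthesia, and 10 ng of total RNA was labelled by a protocol with repeated amplification. No group had a treatment or genotype of its own, and the sources used here do not give strain, sex or age. Nothing says that the replicates came from separate animals, so the p-values measure the spread between these samples, which may in part be technical.

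The cytosolic ribosome is built from ribosomal RNA and a fixed set of proteins, named Rps in the small subunit, which binds and decodes the mRNA, and Rpl in the large subunit, which joins amino acids and holds the tunnel through which the new chain leaves. The acidic P proteins form a stalk on the large subunit that recruits elongation factors. In mammals the mRNAs of these proteins are short and abundant, and they begin with a C followed by a run of pyrimidines (the 5′ terminal oligopyrimidine, or TOP, motif), through which the mTORC1 kinase pathway controls their translation together. In neurons such mRNAs are also found in dendrites and axons.

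The region around the start of a gene is shown for members with the largest and with the smallest range over the 9 arrays, since these are the members that differed most in behaviour below. The sequences come from RefSeq (GRCm38.p6), run from 40 bases before to 20 bases after the annotated start, and are written 5′ to 3′ on the strand of the gene. Capitals mark the longest run of C and T in the stretch. The first 3 genes had a large range and the last 3 a small one. They are examples with long runs, picked after the sequences had been seen from the 6 genes of largest and the 6 of smallest range.

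Rps10, chr17:27635225-27635284, minus strand: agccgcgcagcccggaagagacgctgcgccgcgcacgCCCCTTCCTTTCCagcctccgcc

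Rpl27a, chr7:109519155-109519214, plus strand: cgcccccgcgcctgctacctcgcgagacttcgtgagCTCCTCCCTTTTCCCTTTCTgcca

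Rpl35, chr2:39005112-39005171, minus strand: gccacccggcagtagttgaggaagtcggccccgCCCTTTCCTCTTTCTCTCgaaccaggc

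Rpl4, chr9:64173347-64173406, plus strand: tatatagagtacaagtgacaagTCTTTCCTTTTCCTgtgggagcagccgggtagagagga

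Rpl13a, chr7:45128726-45128785, minus strand: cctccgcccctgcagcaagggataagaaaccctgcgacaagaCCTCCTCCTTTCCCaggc

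Rps25, chr9:44407674-44407733, plus strand: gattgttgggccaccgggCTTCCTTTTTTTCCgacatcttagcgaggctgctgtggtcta

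In the genes shown, the run was 13, 20 and 18 bases long where the range was large and 14 bases in each of the 3 where it was small. It crossed the annotated start in Rps10, Rpl27a and Rpl35 and lay after it in Rpl13a. In Rpl4 and Rps25 the run ended before the annotated start, outside the annotated transcript. Whether any of these runs is a TOP motif was not tested. Among the large ranges not shown, Rps24 had runs of 9 and 19 bases at different annotated starts. Shorter runs were found in other genes of both kinds. They were 6 bases in Rpl37 and at most 9 in Rps27l among the large ranges, and 6 in Rpl6 and 7 in Rpl7l1 among the small ones. Of the 49 genes, 43 had a start in the RefSeq table. Between 40 bases before and 50 after the start, 35 of the 43 (81.4%) had a run of at least 8 C or T on the strand of the gene, against 34.4% of the 11357 tested genes of the array that had a start in the table. The median longest run was 10 bases in the members and 6 in the tested genes. In the window from 250 before to 50 after the start, read on both strands, CCGGAAG was found in 46.5% of the members and 16.9% of the tested genes. In the same window CTTTCC, which the pyrimidine runs can contain, was found in 51.2% and 30.2%. AAGATGG was present in 18.6% and 8.03%, and TATAAA in 14.0% and 10.3%. The search for pyrimidine runs was chosen after the sequences had been seen, and a match describes the letters of the window only.

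The values are intensities on a linear scale with a common floor of 15, and array medians lay between 93.9 and 102. Over all tested genes BNST 1 and NAc 1 were the arrays least like the others of their own region, with r of 0.934 and 0.948 between BNST 1 and the other BNST arrays, and of 0.938 and 0.909 between NAc 1 and the other NAc arrays. Striatal projection neuron markers followed the labels, with their summed intensity between 4238 and 9358 in BNST, between 16572 and 23375 in NAc, and between 28590 and 31815 in dStr.

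The ribosomal protein genes differed widely from array to array within BNST and within NAc. For each gene the deviation from its own mean over the 9 arrays was taken on the log2(intensity + 16) scale and averaged over the 45 tested members. This mean was 0.24, -0.43 and 0.05 on BNST 1, 2 and 3, -0.44, 0.07 and 0.40 on NAc 1, 2 and 3, and -0.02, 0.01 and 0.12 on dStr 1, 2 and 3. BNST 2 and NAc 1 were low and NAc 3 and BNST 1 high, while the dStr arrays lay close together. The members thus spanned 0.84 between the lowest and the highest array, and their region means were -0.04 in BNST, 0.01 in NAc and 0.04 in dStr. The same mean over all 14208 tested genes spanned 0.22, with region means of -0.05 in BNST, 0.01 in NAc and 0.04 in dStr. Single arrays always span at least as much as means of the same arrays, so no conclusion is drawn from that contrast.

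**Figure D1:**
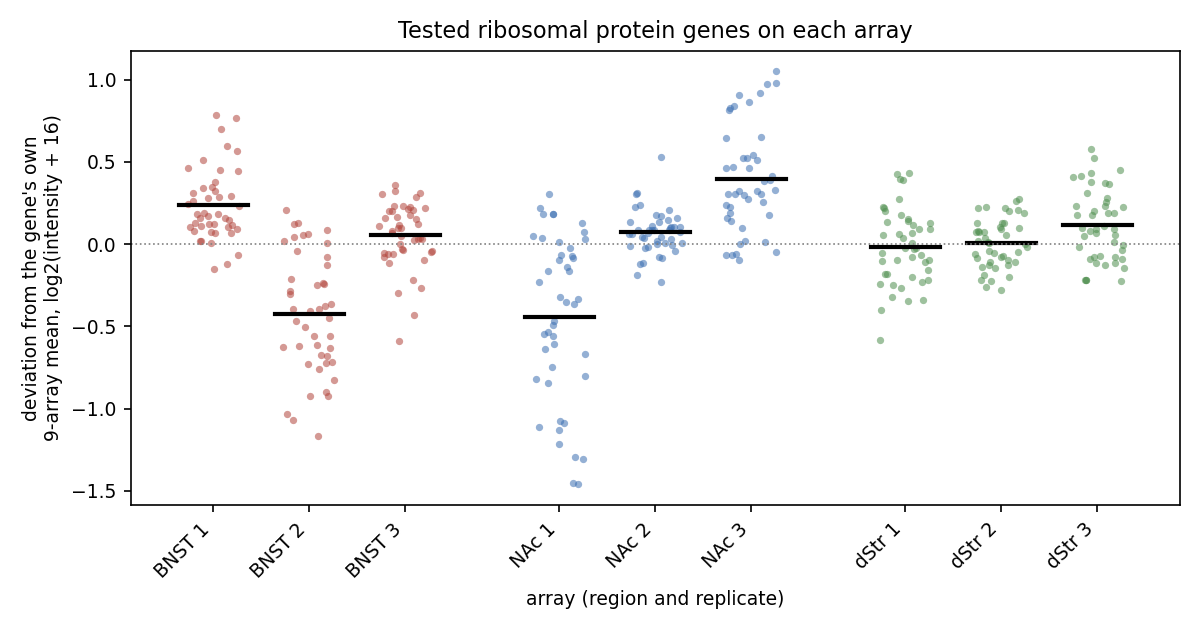
Deviation of each of the 45 tested ribosomal protein genes from its own 9-array mean, in log2(intensity + 16), on each array. Points are genes and the bar is their mean, which was lowest on NAc 1 (-0.44) and BNST 2 (-0.43) and highest on NAc 3 (0.40).

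The shift was shared by most members. On BNST 1 42 of the 45 genes and on NAc 3 40 of them lay above their own mean, against 9 on BNST 2 and 11 on NAc 1. NAc 3 was the highest array for 30 members (66.7%, against 11.4% of all tested genes). BNST 2 was the lowest for 18 (40%, against 24.2%) and NAc 1 for 17 (37.8%, against 16.8%). Within regions the median SD of a member was 0.32 on the log2 scale, against 0.21 for all tested genes. An SD above 0.40, the 90th percentile of all tested genes, was found for 18 members (40%). After the region means had been taken out, the 990 pairs of members had a median Pearson r of 0.77 over the 9 arrays, against 0.12 between a member and any other tested gene. These points share arrays and scaling, so the correlations are descriptions. Of the 45 members, 34 had an r above 0.5 with the mean of the other members, and Rpl39l, Rpl7l1, Rpl8, Rps2 and Rps25, named after their values were seen, had an r below 0. The mean log2 levels of these genes were 7.19, 7.82, 11.4, 12.4 and 7.49 in that order.

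Rps10, a small subunit protein gene mutated in some human cases of Diamond-Blackfan anaemia, had the largest range of the tested members. Its probe set 1439374_x_at read 2337, 958 and 1902.5 on BNST 1, 2 and 3, 611, 1659 and 3247 on NAc 1, 2 and 3, and 1855, 2076 and 2280.4 on dStr 1, 2 and 3. The NAc arrays alone covered the values of the other regions, with a 5.2-fold step between NAc 1 and NAc 3 on the log2(intensity + 16) scale. Rps10 averaged 1733 ± 705 in BNST, 1839 ± 1327 in NAc and 2070.5 ± 213 in dStr (SD, n = 3 arrays each).

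Rps27l, a paralogue of Rps27 that is induced by p53 in human cells, read 488, 116 and 226 on BNST 1, 2 and 3. On NAc 1, 2 and 3 it read 92.4, 412 and 523, and on dStr 1, 2 and 3 385, 282 and 351. Its low arrays were NAc 1 and BNST 2, as for Rps10. Rpl27a, a large subunit gene, read 450.2, 129 and 164 on BNST 1, 2 and 3, 109, 275 and 545 on NAc 1, 2 and 3, and 296, 244 and 373 on dStr 1, 2 and 3. BNST 2, BNST 3 and NAc 1 were low here, and the 3 regions overlapped. The other genes with a large range were the large subunit genes Rpl37 (a range of 2.27 on the log2 scale) and Rpl35 (2.06) and the small subunit gene Rps24 (2.12). NAc 1 was the lowest and NAc 3 the highest array for these 3 genes too.

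Other members varied far less. The genes with the smallest ranges were Rps29 (0.37), Rpl7l1 (0.38), Rpl4 (0.39), Rps25 (0.44), Rpl13a (0.45) and Rpl6 (0.48). Of these, Rps29, Rpl13a and Rpl6 still followed the other members at a smaller amplitude, with r of 0.89, 0.90 and 0.92 with their mean and their lowest value on BNST 2. For Rpl4 this r was 0.46, for Rpl7l1 -0.22 and for Rps25 -0.33. The probe sets of Rpl7l1 and Rps25 were dim, at 183 to 243 and at 134 to 187 over the 9 arrays. The part of a low signal in their range and r was not tested. Rpl4, whose protein reaches into the exit tunnel, read 4436, 4283 and 4940 on BNST 1, 2 and 3, 4641, 4683 and 4854 on NAc 1, 2 and 3, and 3757, 4032 and 4169 on dStr 1, 2 and 3. Its lowest arrays were those of dStr, and BNST 2 and NAc 1 did not stand apart.

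**Figure D2:**
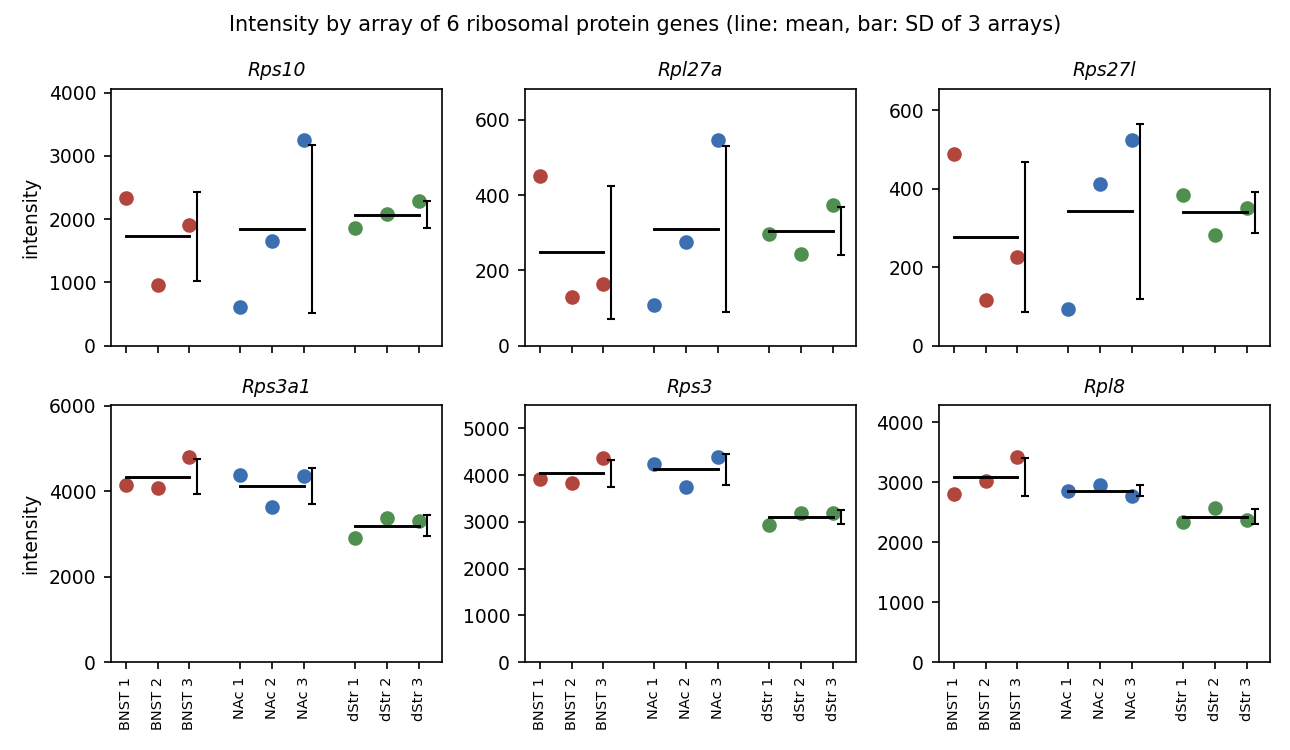
Intensity of Rps10, Rpl27a and Rps27l (top) and of Rps3a1, Rps3 and Rpl8 (bottom) on each array, with a horizontal line for the region mean and a bar for its SD over 3 arrays. The genes of the top row are lowest on NAc 1 and highest on NAc 3, and those of the bottom row have their 3 dStr arrays below the BNST and NAc arrays.

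Other gene groups of protein synthesis and energy supply were set beside the members on the same scale. The mean of 76 mitochondrial ribosomal protein genes ran from -0.41 on BNST 2 to 0.27 on NAc 3, a span of 0.69, with -0.34 on NAc 1. The mean of 78 respiratory chain genes spanned 0.70, from -0.44 on BNST 2 to 0.26 on NAc 3. The spans were smaller for 37 proteasome genes (0.40), 10 elongation factor genes (0.40), 37 initiation factor genes (0.37), 57 genes of ribosome biogenesis and rRNA synthesis (0.28) and 19 genes of mTORC1 and TOP mRNA control (0.27). The 103 probe sets left out of the members because they carry several symbols, 1 of them a ribosomal protein gene, spanned 0.70 with the same lowest array as the mitochondrial list (-0.36 on BNST 2) and 0.34 on NAc 3. Of 9 oligodendrocyte markers 8 were tested, and their mean deviation was -0.58 on NAc 1 and 0.39 on NAc 3, but 0.04 on BNST 2. Their summed intensity lay between 16845 and 18972 in BNST, between 14090.0 and 20209 in NAc and between 16768 and 19264 in dStr, and none was at the floor on all arrays. The mean deviation of 9 tested microglia markers was -0.13, -0.56 and -0.24 on BNST 1, 2 and 3, -0.32, 0.16 and 0.06 on NAc 1, 2 and 3, and 0.30, 0.37 and 0.36 on dStr 1, 2 and 3. BNST 2 and NAc 1 were thus the lowest arrays of their regions for these markers as well as for the ribosomal protein genes. The mean of all tested genes was also lowest on these arrays within their regions, at -0.14 on BNST 2 and -0.06 on NAc 1. The 10 tested markers of striatal projection neurons had -0.76, -2.03 and -1.31 on BNST 1, 2 and 3, again lowest on BNST 2, but 0.41, 0.31 and 0.09 on NAc 1, 2 and 3, and 1.04, 1.07 and 1.18 on dStr 1, 2 and 3. Among other marker lists, astrocyte markers were lowest on BNST 1 (0.44) and NAc 2 (-0.21) within BNST and NAc. General neuron markers were lowest on BNST 2 (-0.20) and NAc 2 (-0.12). Oligodendrocyte precursor markers were lowest on BNST 3 (0.09) and NAc 1 (-0.33), and endothelium and pericyte markers on BNST 3 (-0.25) and NAc 1 (-0.20). Limbic forebrain peptides were lowest on BNST 2 (1.38) and NAc 1 (-0.04). The part of any of these cell types in the spread of the ribosomal protein genes was not tested.

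**Figure D3:**
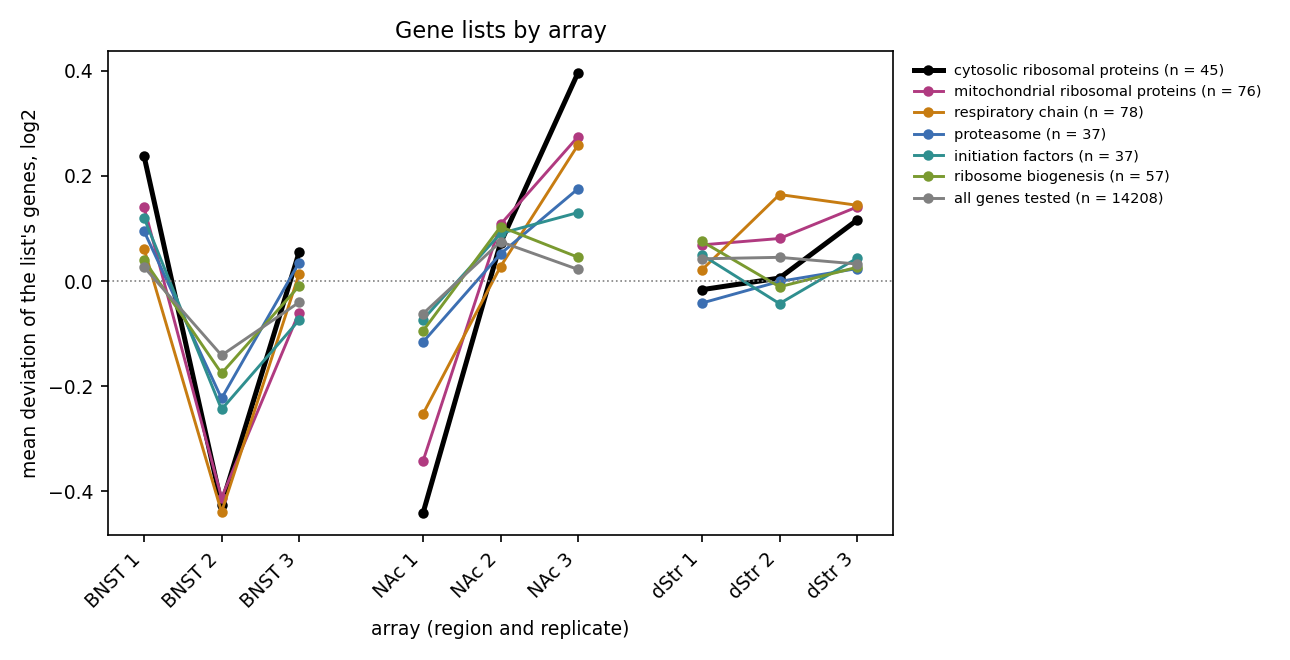
Mean deviation of gene lists from the 9-array mean of their genes, in log2(intensity + 16), on each array. The cytosolic ribosomal protein genes (black) have the widest span of the lists drawn (0.84), the mitochondrial ribosomal protein and respiratory chain genes follow them down on BNST 2 and NAc 1, and the mean of all tested genes (grey) spans 0.22.

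Between regions none of the 45 tested ribosomal protein genes passed the test. For BNST minus NAc the count was 0 of 45, where 2.24% of all 14208 genes passed (limma, adjusted p under 0.05). It was 0 of 45 for BNST minus dStr, where 14.3% of all genes passed, and 0 of 45 for NAc minus dStr, where 2.05% passed. The moderated F test over the 3 regions also had 0 of 45, beside 10.3% of all genes. At an unadjusted p under 0.05 there was 1 member in BNST minus NAc (12.6% of all genes), 4 in BNST minus dStr (29.0%) and 3 in NAc minus dStr (13.1%). The lowest adjusted p of a member was 0.307 for Rps4l in BNST minus NAc, 0.0578 for Rps3a1 in BNST minus dStr and 0.164 for Rps3 in NAc minus dStr. In bulk tissue a lower level in some cells and a smaller number of cells that carry the transcript cannot be told apart.

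The differences were small on average and their precision was uneven. The median log2 difference of the members was -0.05 for BNST minus NAc, -0.07 for BNST minus dStr and -0.05 for NAc minus dStr, beside -0.05, -0.06 and -0.01 for all tested genes. Without BNST 2 the first median became 0.12 and the second 0.11, and without NAc 1 the third became 0.18. Without NAc 3 the first was 0.08. The 95% interval of the difference lay within a log2 difference of 1 in either direction for 36 members in BNST minus NAc, 33 in BNST minus dStr and 36 in NAc minus dStr. These were 80%, 73.3% and 80% of the members, beside 89.0%, 79.5% and 88.6% of all tested genes. For the other 9, 12 and 9 members a change of that size was not excluded by the interval. Rps10 had an interval from -1.47 to 0.78 for BNST minus dStr and from -1.59 to 0.66 for NAc minus dStr.

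**Figure D4:**
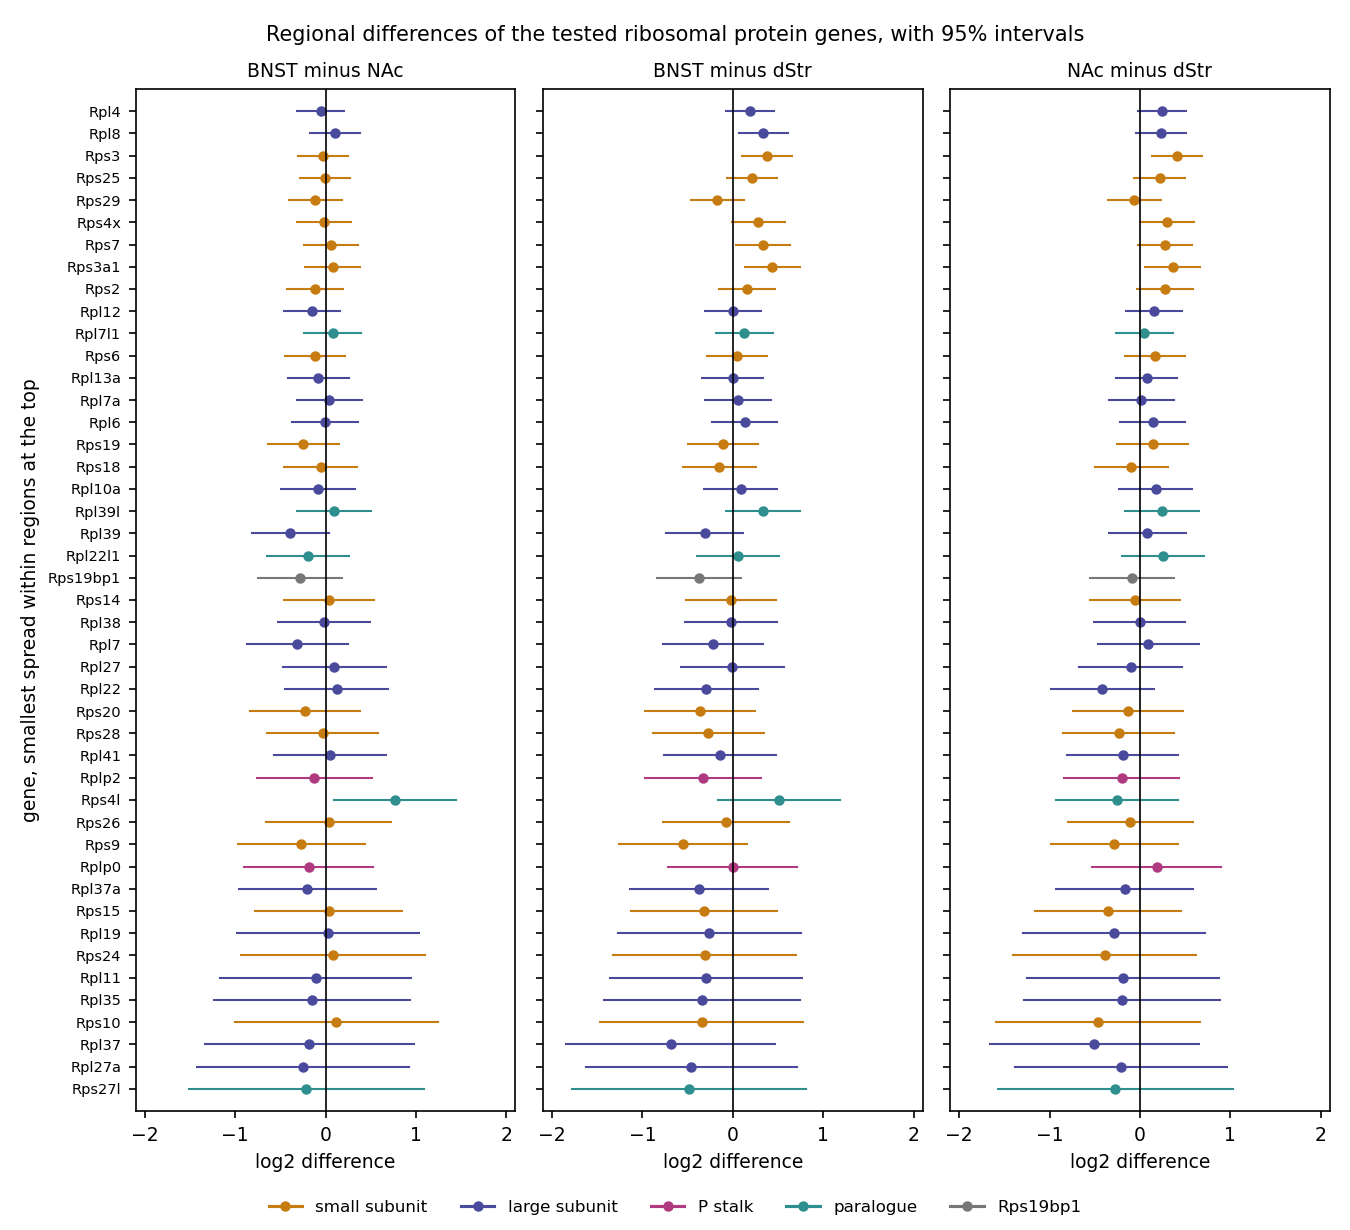
Log2 difference between regions of the 45 tested members with 95% intervals from limma, ordered by the SD within regions. The intervals widen down the page, from genes such as Rpl4 and Rpl8 to Rps27l, and most of them cross 0.

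A few members with a small spread had their dStr arrays below those of both other regions, without passing over all genes. Rps3a1, a small subunit gene, read 4130.4, 4074 and 4802.5 on BNST 1, 2 and 3 (probe set 1422475_a_at, chromosome 3), 4367, 3631 and 4347 on NAc 1, 2 and 3, and 2908, 3368 and 3303 on dStr 1, 2 and 3. All 3 BNST and all 3 NAc arrays lay above the dStr arrays. The log2 difference was 0.44 for BNST minus dStr (SE 0.14, limma adjusted p = 0.0578), a 1.36-fold higher mean in BNST, with a 95% interval from 0.14 to 0.74. For NAc minus dStr it was 0.36 (adjusted p = 0.273).

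Rps3, whose protein lines the mRNA entry channel of the small subunit, read 3906.5, 3826 and 4370 on BNST 1, 2 and 3, 4228, 3740 and 4390.1 on NAc 1, 2 and 3, and 2935, 3184 and 3187 on dStr 1, 2 and 3. Again the dStr arrays were the 3 lowest. Its log2 difference was 0.38 for BNST minus dStr (limma adjusted p = 0.072) and 0.41 for NAc minus dStr (adjusted p = 0.164). Rpl8, a large subunit protein gene whose product lies near the peptidyl transferase centre, read 2806, 3020.3 and 3426 on BNST 1, 2 and 3, 2851, 2950.1 and 2776 on NAc 1, 2 and 3, and 2338, 2569 and 2375 on dStr 1, 2 and 3. Its difference was 0.34 for BNST minus dStr, with an interval from 0.06 to 0.61 and a limma adjusted p of 0.0991. These 3 genes were singled out after their values were seen, as the lowest adjusted p-values of the members in BNST minus dStr, and the differences of BNST and of NAc from dStr share the dStr arrays.

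Arrays of BNST and dStr did not overlap in 8 of the 45 members higher in BNST (17.8%, beside 14.9% of all tested genes) and in 3 members lower in BNST (6.67%, beside 21.5%). The 8 were Rpl4, Rpl8, Rps25, Rps3, Rps3a1, Rps4l, Rps4x and Rps7, and the 3 were Rpl22, Rps19bp1 and Rps9. Between NAc and dStr 7 members did not overlap with NAc higher (15.6%, beside 9.11%), namely Rpl4, Rpl8, Rps2, Rps3, Rps3a1, Rps4x and Rps7, and 0 with NAc lower, beside 10.0% of all genes. Between BNST and NAc the arrays overlapped in all 45, beside 5.78% of all genes not overlapping with BNST higher and 8.84% with BNST lower. Apart from Rps4l, with an SD within regions of 0.46, the members higher in BNST without overlap had an SD of at most 0.13. These genes were named after their values were seen.

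By subunit, the 18 tested small subunit genes had a median log2 difference of -0.02 for BNST minus NAc, -0.09 for BNST minus dStr and -0.06 for NAc minus dStr. The 19 large subunit genes had -0.08, -0.14 and -0.00 in the same order. The median SD within regions was 0.23 in the small and 0.36 in the large subunit genes, and both classes held genes of wide and of narrow range. Rps6, the substrate of the S6 kinases, had differences of -0.12, 0.05 and 0.16, with a 95% interval from -0.28 to 0.38 for BNST minus dStr. Rps4x, an X-linked small subunit gene, had a difference of 0.28 for BNST minus dStr (limma adjusted p = 0.193) and 0.30 for NAc minus dStr (adjusted p = 0.376). Rpl11, whose free protein binds Mdm2 and so links ribosome assembly to p53, had wide intervals, from -1.36 to 0.76 for BNST minus dStr. It read 2118, 743 and 1367 on BNST 1, 2 and 3, 660.3, 1535 and 2678 on NAc 1, 2 and 3, and 1724, 1235 and 1896.5 on dStr 1, 2 and 3, so that the 3 regions overlapped.

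Across BNST minus dStr the differences ran from -0.55 to 0.44 in the small subunit genes and from -0.68 to 0.34 in the large subunit genes, and 7 of the 18 small and 5 of the 19 large subunit genes were above 0. Rpl22 and Rpl10a, chosen after their values were seen, are the large subunit genes whose tagged proteins are used in mice to isolate the ribosomes of chosen cell types. Rpl22 read 2549, 1773 and 2504 on BNST 1, 2 and 3, 1316, 2301 and 2887 on NAc 1, 2 and 3, and 2740, 2732 and 2790.3 on dStr 1, 2 and 3. Its dStr arrays were within a narrow band, above the BNST arrays and inside the span of the NAc arrays. Its log2 difference was -0.29 for BNST minus dStr (SE 0.26, limma adjusted p = 0.493) and -0.42 for NAc minus dStr (adjusted p = 0.56). Rpl10a read 2492, 1725 and 2797 on BNST 1, 2 and 3, 2160.4, 2434 and 2741 on NAc 1, 2 and 3, and 2017, 2298 and 2166 on dStr 1, 2 and 3. Here BNST 2 alone lay below the dStr arrays, and the difference was 0.09 for BNST minus dStr (SE 0.18, limma adjusted p = 0.802).

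The 2 tested P stalk genes followed the common array pattern. Rplp0, the base of the stalk and a widely used reference gene in quantitative PCR, read 1521.5, 772 and 1259 on BNST 1, 2 and 3, 844, 1216 and 2121 on NAc 1, 2 and 3, and 1146, 1019 and 1267 on dStr 1, 2 and 3. The step between its lowest array, BNST 2, and its highest, NAc 3, was 2.71-fold, and the BNST and NAc arrays each spanned the dStr values. Its log2 difference was 0.00 for BNST minus dStr, with a 95% interval from -0.71 to 0.71. Rplp2 differed by -0.33 for BNST minus dStr (SE 0.29, limma adjusted p = 0.491). Rplp1, Rps27a and Rpl5 were not among the members with a single symbol and were not analysed here.

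Of the paralogues and like-named genes, Rps4l, a paralogue of the small subunit gene Rps4x, had the largest difference of any member between BNST and NAc. It read 216, 149 and 167 on BNST 1, 2 and 3, 49.1, 109 and 159.9 on NAc 1, 2 and 3, and 133, 102 and 123 on dStr 1, 2 and 3. The BNST and NAc arrays overlapped, since NAc 3 lay above BNST 2. Its difference was 0.76 for BNST minus NAc (SE 0.30, limma adjusted p = 0.307), with an interval from 0.09 to 1.44. Rpl39l, a paralogue of the exit tunnel gene Rpl39 known from mouse testis, had 0.34 for BNST minus dStr (adjusted p = 0.259 from limma). Rpl22l1 (0.06), Rpl7l1 (0.13) and Rps27l (-0.48) had adjusted p-values of 0.886, 0.6 and 0.631 in that comparison. Rps19bp1 fits the naming rule but encodes a binding partner of Rps19 and no ribosomal protein, and its difference there was -0.37 (adjusted p = 0.274). The muscle paralogue Rpl3l did not pass the filter, with intensities between 28.9 and 50.3.

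The list used here of members whose human counterparts are mutated in Diamond-Blackfan anaemia, a failure of red cell formation, may not be complete. It held 9 tested genes, and 0 of them passed in any of the 3 comparisons. Their median difference was 0.03 for BNST minus NAc, -0.17 for BNST minus dStr and -0.11 for NAc minus dStr. Of the 9, 1 did not overlap between BNST and dStr, beside 14.9% of all tested genes higher and 21.5% lower without overlap. It was Rps7, higher in BNST at a log2 difference of 0.33 (limma adjusted p = 0.13).

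The counts of 0 for BNST minus NAc, BNST minus dStr and the F test changed when BNST 1 and NAc 1 were left out. Without these 2 arrays, 7 of the 45 members passed between BNST and NAc, all lower in BNST, when 2203 of all 14208 genes passed (limma, adjusted p under 0.05). They were Rpl27a, Rpl37, Rpl39, Rpl7, Rps20, Rps27l and Rps9, named here after their values were seen. Between BNST and dStr 8 members then passed, with Rpl8 and Rps3a1 higher and Rpl27a, Rpl37, Rpl39, Rps20, Rps27l and Rps9 lower in BNST, when 4150 of all genes passed. The F test had 5 members, Rpl27a, Rpl37, Rpl39, Rps27l and Rps9, when 3686 of all genes passed. NAc minus dStr had 0, when 707 passed. The share of members passing was thus close to that of all genes for BNST minus NAc. It was smaller than that of all genes for BNST minus dStr and the F test. By the members' mean deviation, BNST 1 was the highest BNST array (0.24) and NAc 1 the lowest NAc array (-0.44). Leaving both out therefore lowers BNST against NAc in the members. Without BNST 1 alone 0 members passed in the 3 comparisons and the F test, and without NAc 1 alone 1 member, Rps3a1, passed in BNST minus dStr and 0 in the other comparisons and the F test. Without BNST 2 and NAc 1, on which the members were lowest, 0 of 45 passed in each of the 3 comparisons and the F test, a choice made after the data were seen.

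Several probe sets of 1 gene often gave different pictures. Of the 21 tested genes with several kept probe sets, 10 had probe sets with both signs of the BNST minus dStr difference and 11 had 1 sign. In some of the 10, 1 of the signs rested on a value close to 0. Examples are the lowest difference of Rpl13a (-0.0034) and of Rps14 (-0.017), and the highest of Rps29 (0.0035). Rpl35 had 6 kept probe sets, and their differences ran from -0.52 to 0.36. The brightest, 1434231_x_at, read 2109, 719 and 1665 on BNST 1, 2 and 3, 717, 1575 and 3032 on NAc 1, 2 and 3, and 1783, 1471 and 1981 on dStr 1, 2 and 3. The probe set 1454833_at of the same gene read 111, 188 and 212 on BNST 1, 2 and 3, 121, 144 and 106 on NAc 1, 2 and 3, and 133, 112 and 132 on dStr 1, 2 and 3. Low values on BNST 2 and NAc 1 were thus seen in the first probe set and not in the second, whose lowest arrays were NAc 3 and BNST 1.

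Rps10 had 6 kept probe sets, of which 1436384_at had an SD within regions of 0.18 and read between 88.8 and 129, while the other 5 had SDs between 0.80 and 0.97. Rps7 differed by 0.33 for BNST minus dStr in 1419364_a_at and by -0.33 in 1435593_x_at. Rpl27 ran from -0.85 to -0.00 over 3 probe sets, Rps9 from -0.55 to 0.10 over 3, and Rps3 from -0.25 to 0.38 over 3. Tested one by one, 1 of the 93 member probe sets passed in BNST minus dStr, beside 14.5% of all probe sets with 1 symbol. It was 1419799_at of Rpl27a, at 64.3, 22.9 and 38.4 on BNST 1, 2 and 3, 56.1, 82.1 and 90.5 on NAc 1, 2 and 3, and 83.2, 82.3 and 86.2 on dStr 1, 2 and 3, a log2 difference of -0.85 (limma adjusted p = 0.0432).

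Affymetrix marks with _x_at those probe sets in which some probes also match other sequences, and ribosomal protein genes have many processed pseudogenes. Of the 104 member probe sets, 40 were of this kind, 33 ended in a plain _at, 28 in _a_at and 3 in _s_at. Among those that passed the filter the median SD within regions was 0.44 for the 38 _x_at, 0.41 for the 27 _a_at and 0.28 for the 25 plain _at probe sets. The median BNST minus dStr difference was -0.32, -0.11 and -0.06 in the same order. Suffix and level were not separated here. Some plain _at probe sets were dim, such as 1436384_at of Rps10 (88.8 to 129) and 1454833_at of Rpl35 (106 to 212). Bright plain _at probe sets had SDs of 0.71 (Rpl19, 1416219_at), 0.49 (Rplp0, 1419441_at) and 0.25 (Rpl39, 1423032_at). Which sequences each probe reads, and their part in the spread, was not tested.

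**Figure D5:**
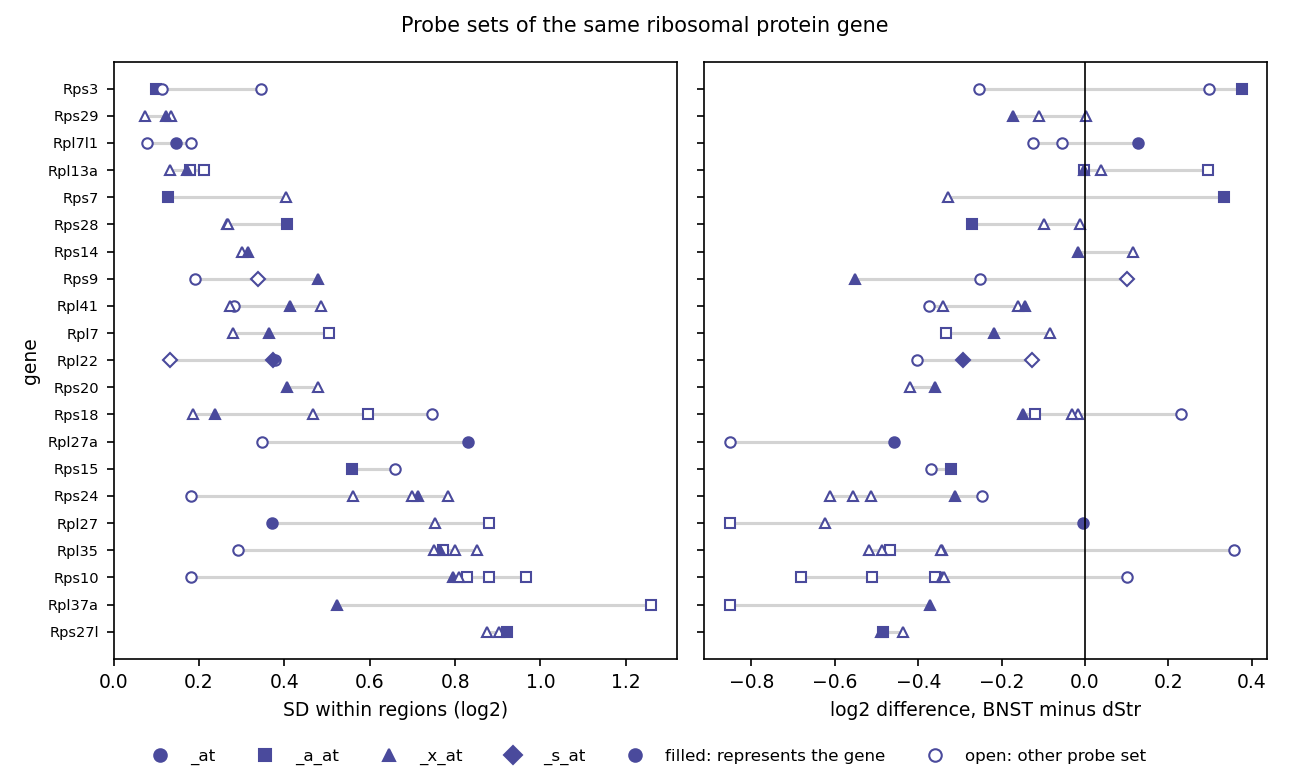
SD within regions (left) and log2 difference BNST minus dStr (right) of every kept probe set of the 21 genes with several, 1 line per gene. Filled symbols are the brightest probe set, which represents the gene, and the shape gives the suffix, and for Rps10 and Rpl35 1 plain _at probe set lies far from the others.

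The 4 members that were not tested had only dim probe sets. Besides Rpl3l they were Rpl14, a large subunit gene read between 32.3 and 90.4, and the small subunit genes Rps16, between the floor of 15 and 23.1, and Rps27, between 42.2 and 87.4. They were not tested, and no regional difference is given for them.

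Among the other genes of protein synthesis, few passed. Beside them, 702 of all 14208 tested genes were higher and 1325 lower in BNST than in dStr, together 14.3%. For BNST minus NAc 2.24% of all genes passed, and for NAc minus dStr 2.05%. Of 37 initiation factor genes, Eif1a, which acts in scanning for the start codon, was higher in BNST than in dStr (274 ± 19.5 in BNST and 171 ± 8.15 in dStr, 1.55-fold, SD, n = 3 arrays, limma adjusted p = 0.0074). Eif5b, which joins the subunits, was 1.70-fold lower in BNST and 1.58-fold lower in NAc than in dStr. Of 57 biogenesis and rRNA synthesis genes, Nop16 was 1.59-fold higher in BNST than in dStr, and Ubtf, the RNA polymerase I factor (1.79-fold), Pno1 (1.45-fold) and Bop1 (1.41-fold) were lower. Of 19 genes of mTORC1 and TOP mRNA control, Tial1, an RNA-binding protein gene, was 1.66-fold higher in BNST than in dStr, and the kinase gene Rps6ka3 was 3.88-fold lower in BNST than in dStr and 2.49-fold lower than in NAc. Of 76 mitochondrial ribosomal protein genes 5 were lower and 0 higher in BNST than in dStr, among them Mrps9 (2.31-fold) and Mrps33 (1.57-fold). Of 78 respiratory chain genes 1, Ndufv1, was lower in BNST than in dStr, and of 37 proteasome genes 1, Psmb10, was higher. Of the 10 elongation factor genes 0 passed in the 3 comparisons, and 0 of the 2 further ribosomal proteins tested that carry no Rpl or Rps number.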

How the data were processed

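RNA of 3 BNST, 3 NAc and 3 dStr samples was read on 9 Mouse430_2 arrays. The deposited values are probe-set intensities on a linear scale, summarised by the authors, with low signals set to a floor of 15. The sources used here do not say how probes were summarised or arrays scaled, and the deposited scaling was kept. The number of arrays limits the precision. Symbols came from the platform annotation of the array, which gave 1 symbol for 34945 probe sets, several for 932 and none for 9160. Values were tested as log2(intensity + 16), on which folds of dim genes are understated. Of all probe sets 29293 passed the filter, and a gene was represented by its brightest kept probe set with 1 symbol. The tests used limma 3.58.1 (R 4.3.3), with a single model over the 9 arrays and 6 residual degrees of freedom. P-values were 2-sided and adjusted by Benjamini-Hochberg over the 14208 genes of a comparison, with a threshold of 0.05. The procedure was tested on simulated data.

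The members, lists and naming rules were chosen with earlier results of these data known. The genes named by rule were the 6 with the largest and the 6 with the smallest range, the paralogues, Rplp0, Rplp2, Rps6, Rpl11 and Rps4x, the 6 whose probe sets disagree most, and up to 4 passing genes of each other list per comparison and direction. Alternatives were other scalings, filters, pseudocounts, ways to represent a gene, a robust prior, a block on replicate number, and arrays left out. The 110 probe sets with several symbols of which 1 is a member were left out of the gene tests, and 103 of them passed the filter.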

Additional observations from a re-analysis of the deposited data

How the results depend on the processing

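For BNST minus dStr the count of passing members was 1 rather than 0 with the mean of the kept probe sets, median centring, quantile normalisation, and a trend and robust prior (Rps3a1, higher in BNST, each time). Of all 14208 genes, 2268, 2121, 2430 and 2012 passed in that order. The count of members was 1 with each probe set by itself (Rpl27a, lower), when 3461 of all probe sets with 1 symbol passed. With a pseudocount of 64 it was 2 (Rps3 and Rps3a1, higher), when 2037 of all genes passed. Without BNST 1 and NAc 1 it was 8, when 4150 of all genes passed. That alternative gave 7 for BNST minus NAc, when 2203 of all genes passed, and 5 for the F test, when 3686 passed. Leaving out 1 array in turn gave 0 to 1 for BNST minus dStr and 0 in the other comparisons. The 1 was Rps3a1 without NAc 1 (limma adjusted p = 0.0497), when 2673 of all genes passed. For NAc minus dStr the count was 0 under all alternatives run. The medians of the members moved by less than 0.316, the SD between replicates of their mean, but changed sign with 1 array left out, from -0.224 to 0.112 for BNST minus dStr, from -0.223 to 0.117 for BNST minus NAc and from -0.198 to 0.183 for NAc minus dStr. Without BNST 1 and NAc 1 they were -0.224, -0.311 and 0.183 in that order. Quantile normalisation shifted the median of all genes for BNST minus dStr to 0.0611, against -0.0555.

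With a replicate block 0 members passed in the 3 comparisons and the F test, and 1480 of all genes passed for BNST minus dStr, against 2027 without it. Same-numbered arrays of 2 regions correlated between -0.514 and 0.261 in their deviations from the region means. Differently numbered arrays correlated between -0.338 and 0.42. With 3 arrays per region these values cannot decide whether the numbers pair the arrays. Of 1935 results of named members under the alternatives, 1766 kept their sign and their side of the threshold, 147 changed sign without passing in either setting, and 22 passed with the same sign. The wide spread of the brightest probe sets limits what 3 arrays per region can show.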
